A study of Homo sapiens with 24 samples.

Results

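OVCAR8 and COV362, the ovarian cancer lines of the series, were compared with each other in cells that had received only the DMSO vehicle for 5 days. The comparison used 4 of the 24 libraries, 2 of OVCAR8 and 2 of COV362, chosen by their labelled line, treatment and time, across the 16591 gene symbols of the deposited table. The other libraries belong to the breast lines BT549 and MDAMB436, to cells treated with 5 µM EPZ015666, which blocks the arginine methyltransferase PRMT5, and to OVCAR8 and BT549 at day 3. The assay was stranded sequencing of poly(A) RNA. Each is a single established cell line and stands for no wider class of tumour. The libraries of a group are named A and B, and the labels do not say that they came from separate cultures. Each p-value thus reflects no more than how A and B vary, in the DMSO comparison over 12 libraries in 6 groups, breast lines and day 3 included. That variation may be technical.

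Carcinomas of the ovary of the serous and endometrioid kinds are thought to arise largely from Mullerian epithelium, the lining of the fallopian tube and uterus, and many keep its transcription factors, such as PAX8 and SOX17. Cell lines from such tumours can lie anywhere between an epithelial state, with keratins, claudins and secreted mucins, and a mesenchymal state, with matrix, proteases and the receptor AXL. Lines also differ in genes lost or silenced, in chromosome copies and in how active their interferon response is in the absence of infection.

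Values are RPKM, reads scaled for gene length and library depth, and here the kilobase is one of whole gene span with introns, so that a level can be compared between lines for 1 gene but not between genes of different structure. Per gene the values of libraries A and B are given in that order. Differences are log2(RPKM + 0.1) of OVCAR8 minus COV362 from limma with their SE, with n = 2 libraries a line. The SE is not the spread of these lines alone, since limma took 1 spread per gene from the 12 DMSO libraries. For a gene near 0 in one line the size of the difference is set by the added 0.1. The reads recovered from the values numbered 23.88 M and 30.12 M (M, mega) in OVCAR8 and 31.55 M and 44.94 M in COV362. Libraries of 1 line were close to each other. The median absolute log2 difference between A and B was 0.0675 in OVCAR8 and 0.0489 in COV362, and that between the lines was 0.606. The median chi-square of a gene between A and B was 2.66 times counting error in OVCAR8 and 2.21 times in COV362, so no library was a copy of another.

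Most of the genes that could be tested differed between the lines. Of 8684 genes with a mean of at least 0.5 RPKM over the 4 libraries, 7158 (82.4%) were called at an adjusted p under 0.05. Of these, 3603 (41.5%) were higher and 3555 (40.9%) were lower in OVCAR8. With a difference of at least 2-fold required as well, 1316 genes (15.2%) were higher and 1211 (13.9%) lower, and the median over all tested genes was -0.004. These 2-fold counts depend on the added 0.1. With a pseudocount of 1 the 2527 genes became 1320, of which 1317 were shared. Of the 8684 tested genes, 1466 were under the filter level in 1 line, which favours large differences. Since 82.4% of all genes passed, a member of a gene group that passes is not in itself a result about that group. Nor are libraries that do not overlap between the lines, since A and B lay much closer to each other than the lines did. The counts past 2-fold below are to be read against 15.2% higher and 13.9% lower over all tested genes.

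**Figure D1:**
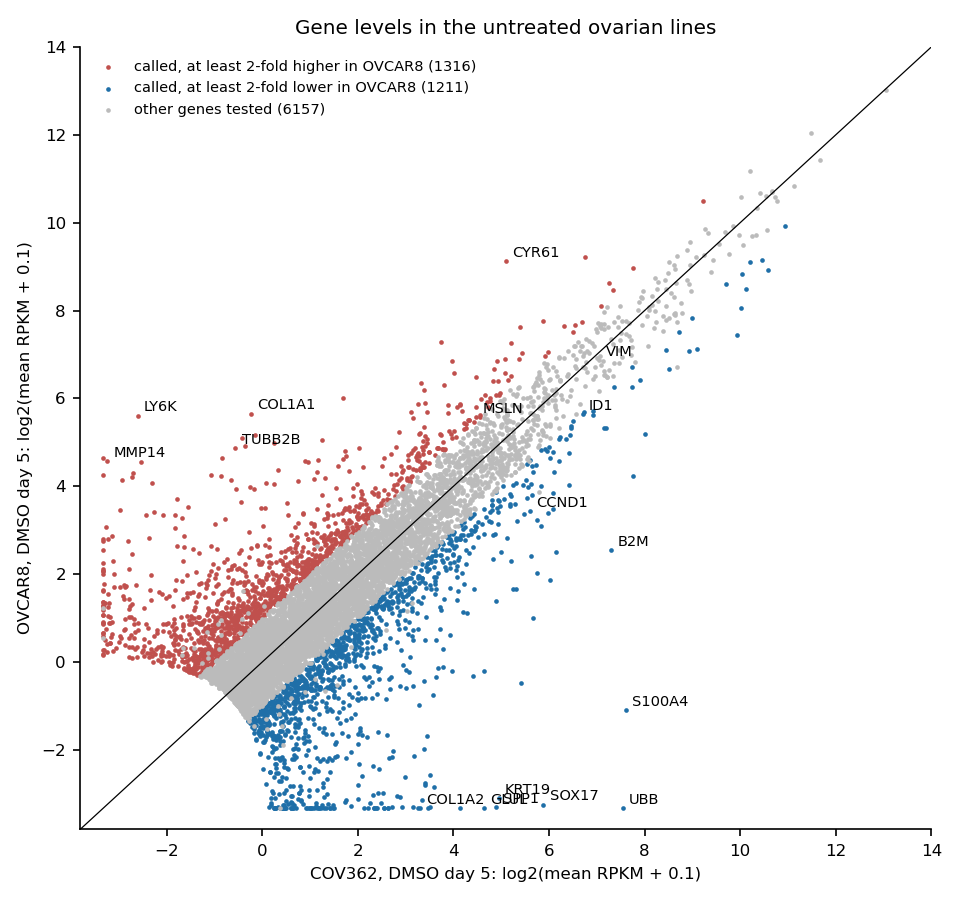
Mean level of each tested gene under DMSO at day 5, OVCAR8 on the vertical and COV362 on the horizontal axis, both as log2(RPKM + 0.1), with the line of equal levels. The 1316 genes at least 2-fold higher in OVCAR8 are red, the 1211 at least 2-fold lower are blue, and UBB, SOX17 and S100A4 lie farthest below the line.

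Mullerian and ovarian carcinoma genes were mostly lower in OVCAR8. Of 17 tested members of that list, 16 were lower in OVCAR8, 15 of them at least 2-fold, and 1 was higher, with a median log2 difference of -4.18 against -0.004 for all genes. The list was written with earlier results of these data known, and 10 of the tested members reached the level filter through 1 line alone. SOX17, a transcription factor of the Mullerian tract, had 0 and 0.0111 RPKM in OVCAR8, against 56.9 and 61 RPKM in COV362. EMX2, a homeobox factor needed to form the urogenital tract, was listed at 0 in both OVCAR8 libraries and had 17.9 and 17.2 RPKM in COV362. LHX1, a homeobox factor of the same embryonic ducts, had 0.079 and 0.0461 RPKM in OVCAR8, against 7.96 and 7.8 RPKM in COV362, and MEIS1, another homeobox factor, had 0.0114 and 0.0208 RPKM in OVCAR8, against 1.58 and 1.59 RPKM in COV362. In each of these factors the OVCAR8 libraries lay at or near 0 and far below both COV362 libraries.

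Because the span includes introns, the level filter leaves out long genes even where they hold many reads. PAX8, the lineage factor used to diagnose these tumours, did not reach that filter and was not tested. It had 0.0668 and 0.073 RPKM in OVCAR8 and 0.354 and 0.344 RPKM in COV362. WT1, a marker of serous carcinoma, had 0.037 and 0.0405 RPKM in OVCAR8 and 0.208 and 0.208 RPKM in COV362, and the lineage factor MECOM had 0.0364 and 0.0351 RPKM in OVCAR8 and 0.305 and 0.31 RPKM in COV362, also untested. All of these untested factors had both OVCAR8 libraries under both COV362 libraries, which with 2 libraries a line is not a test.

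Secreted and surface products of this epithelium were also lower in OVCAR8, with 1 exception among those named here. MUC1, a membrane mucin, had 1.72 and 2.09 RPKM in OVCAR8, against 51.4 and 49.3 RPKM in COV362 (log2 difference -4.66 ± 0.15, adjusted p = 1.3e-08). SLPI, a secreted protease inhibitor, had 0.851 and 0.677 RPKM in OVCAR8, against 15.6 and 15.5 RPKM in COV362, and LCN2, an iron-binding secreted protein, had 0.094 and 0.0374 RPKM in OVCAR8, against 4.46 and 3.9 RPKM in COV362. WFDC2, which encodes the tumour marker HE4, had 0.453 and 0.566 RPKM in OVCAR8, against 3.47 and 3.37 RPKM in COV362. MUC16, which encodes the antigen CA125, was listed at 0 in both OVCAR8 libraries and had 0.478 and 0.712 RPKM in COV362, below the filter. SLC34A2, a phosphate transporter targeted in ovarian cancer, was likewise listed at 0 in OVCAR8 and had 2.78 and 2.66 RPKM in COV362. The exception was MSLN, mesothelin, a surface antigen bound by MUC16, with 48 and 46.7 RPKM in OVCAR8, against 22.9 and 21.5 RPKM in COV362 (log2 difference 1.09 ± 0.11, adjusted p = 2.1e-05). FOLR1, PAX2 and ESR1 were not analysed here. Of the lineage genes given here, MSLN was the one with both OVCAR8 libraries above both COV362 libraries, and EMX2, MUC16 and SLC34A2 were listed at 0 in OVCAR8.

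Most of the genes with the largest differences were at or near 0 in one line. UBB led the 20 largest lower in OVCAR8. It is 1 of the genes for ubiquitin, the small protein that tags others for the proteasome, and had 0 and 0 RPKM in OVCAR8, against 183 and 189 RPKM in COV362. Those levels stand for 0 and 0 recovered reads in OVCAR8 and 11459 and 16753 in COV362. UBB was listed at 0 in all 8 OVCAR8 libraries, with the drug or at day 3 included, and had 307 ± 0.0133 RPKM in BT549 and 112 ± 0.752 RPKM in MDAMB436 under DMSO at day 5 (SD, n = 2 each). RPS27A, which encodes ubiquitin fused to a ribosomal protein and was chosen after its value was seen, had 26 and 24.4 RPKM in OVCAR8, against 48.1 and 45.6 RPKM in COV362. Ubiquitin repeats are near-identical between genes, and reads may be split among them.

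GLUL, glutamine synthetase, was also listed at 0 in all 8 OVCAR8 libraries. It had 24.9 and 24.9 RPKM in COV362 and 22 ± 0.533 and 26.7 ± 0.557 RPKM in BT549 and MDAMB436 (SD, n = 2 each). In all, 17 genes, 14 of them protein-coding, had 3 reads or fewer over the OVCAR8 libraries together and at least 5 RPKM in each COV362 library, and 7 of these were listed at 0 in every OVCAR8 library of the series. In the other direction 8 genes, 4 of them protein-coding, met that rule, and 3 were listed at 0 in all 4 COV362 libraries. These counts were made after the data were seen. LDOC1, an X-linked regulator of transcription, was 1 of the 3, with 19 and 19.4 RPKM in OVCAR8 and 0 and 0 RPKM in COV362. XAGE1A, a cancer-testis antigen of the X chromosome, was another, with 7.04 and 6.75 RPKM in OVCAR8, and its reads may be shared with the near-identical XAGE1B.

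The others of the 20 largest lower genes included several secreted or structural proteins. SPP1, the secreted matrix protein osteopontin, had 0 and 0.00422 RPKM in OVCAR8, against 30.3 and 29.3 RPKM in COV362. S100A4, a calcium-binding protein linked to cell motility, had 0.335 and 0.407 RPKM in OVCAR8, against 204 and 187 RPKM in COV362 (log2 difference -8.70 ± 0.10, adjusted p = 3.5e-11). AQP5, a water channel of gland epithelium, had 0 and 0 RPKM in OVCAR8, against 11 and 10.9 RPKM in COV362, and STRA6, the receptor that takes up vitamin A, had 0 and 0.003 RPKM in OVCAR8, against 7.7 and 7.3 RPKM in COV362. SELENBP1, a selenium-binding oxidase, had 0 and 0.00389 RPKM in OVCAR8, against 11.6 and 11.1 RPKM in COV362, and GSPT2, a translation termination factor, had 0 and 0 RPKM in OVCAR8, against 9.77 and 9.17 RPKM in COV362. CDH6, a cadherin of kidney and ovarian carcinoma, had 0.00122 and 0.000727 RPKM in OVCAR8, against 6.41 and 6.55 RPKM in COV362. The OVCAR8 libraries of every one of these genes stood under 0.5 RPKM.

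Among the 20 largest higher genes, LY6K, a surface antigen otherwise found in testis, had 50.2 and 47.5 RPKM in OVCAR8, against 0.0683 and 0.0613 RPKM in COV362 (log2 difference 8.21 ± 0.07, adjusted p = 9.2e-12). MMP14, a membrane-bound metalloprotease that cleaves collagen, had 23.7 and 23.7 RPKM in OVCAR8, against 0.005 and 0.00704 RPKM in COV362 (log2 difference 7.81 ± 0.05, adjusted p = 4.1e-12). NEFH, the heavy chain of neurofilament, had 11.1 and 10.8 RPKM in OVCAR8, against 0.014 and 0.0393 RPKM in COV362, and CTCFL, the testis paralogue of the insulator protein CTCF, had 7.29 and 7.11 RPKM in OVCAR8, against 0.0126 and 0.014 RPKM in COV362. HBQ1, a globin of the alpha cluster, had 16.6 and 20.3 RPKM in OVCAR8, against 0.0428 and 0.0602 RPKM in COV362, and PTGER1, a prostaglandin receptor, had 10.2 and 9.89 RPKM in OVCAR8, against 0.14 and 0.0303 RPKM in COV362. COV362 was under 0.3 RPKM for each of these, and above it for COL1A1 and MMP23A of the same 20.

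**Figure D2:**
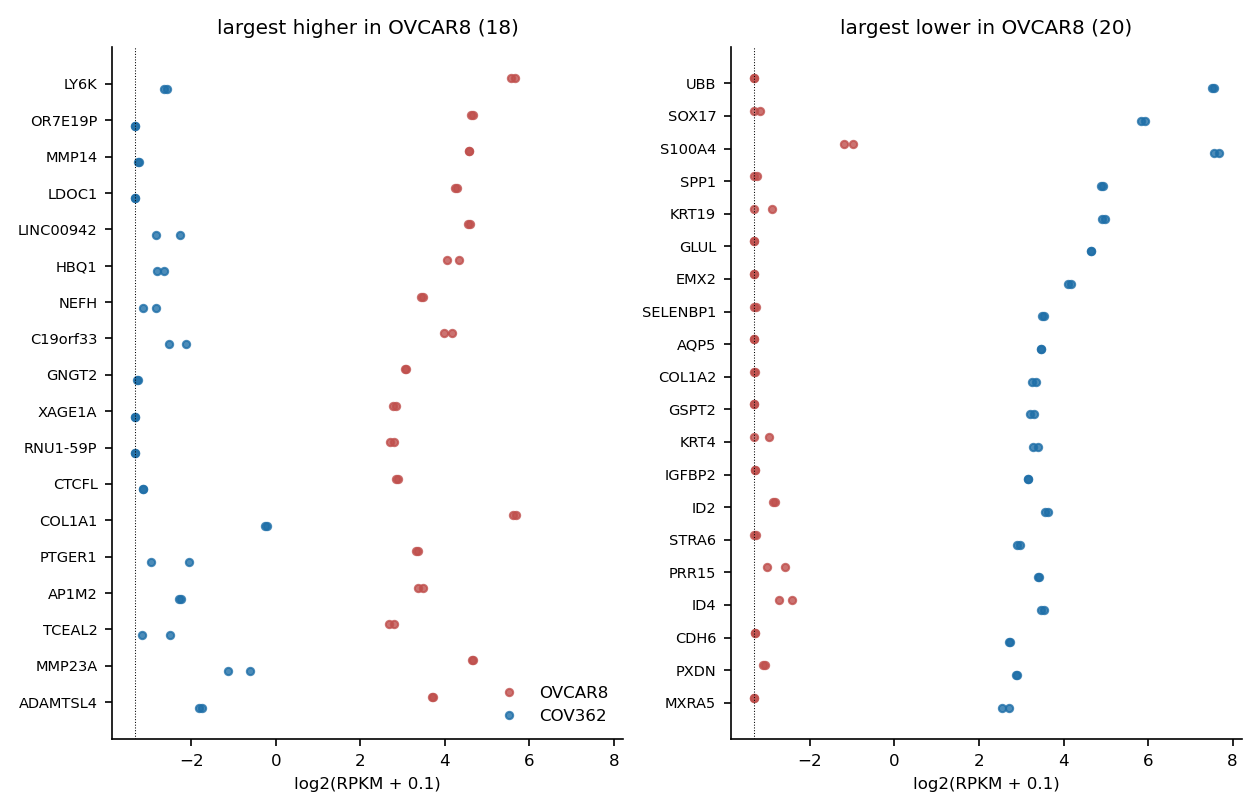
Genes with the largest positive (left, 18 of 20 shown) and negative (right, 20 shown) log2 difference that met the rule for named genes, as log2(RPKM + 0.1) in each library, OVCAR8 in red and COV362 in blue. The dotted line marks 0 RPKM, and in every gene the libraries of one line lie apart from those of the other, which that rule requires.

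Epithelial genes moved in both directions. Among junction and keratin genes, 9 of 21 tested genes were higher in OVCAR8, 5 at least 2-fold, and 12 were lower, 9 at least 2-fold, with a median of -0.66, and 6 were under the filter level in 1 line. KRT19, a keratin of simple ducts, had 0.0351 and 0 RPKM in OVCAR8, against 31.7 and 29.7 RPKM in COV362, whereas its relatives KRT18 and KRT8, the keratin pair of simple epithelia, were higher in OVCAR8. KRT18 had 182 and 185 RPKM in OVCAR8, against 93.4 and 87.6 RPKM in COV362 (log2 difference 1.02 ± 0.06, adjusted p = 6.6e-07) and KRT8 had 25.7 and 26.1 RPKM in OVCAR8, against 15.2 and 15 RPKM in COV362 (log2 difference 0.77 ± 0.04, adjusted p = 1.4e-07). KRT17, a keratin of basal and wounded epithelium, had 9.29 and 9.77 RPKM in OVCAR8, against 0.381 and 0.593 RPKM in COV362, and KRT7, the keratin used to recognise ovarian origin, had 21 and 22.1 RPKM in OVCAR8, against 35.1 and 34.8 RPKM in COV362. The keratin genes named here thus differed in both directions.

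The claudins of this list, which seal epithelial sheets, were lower in OVCAR8. CLDN3 had 2.78 and 3.35 RPKM in OVCAR8, against 39.6 and 35.9 RPKM in COV362, CLDN4 had 0.0821 and 0.0861 RPKM in OVCAR8, against 5.46 and 5.16 RPKM in COV362 and CLDN1 had 0.477 and 0.511 RPKM in OVCAR8, against 12 and 11.4 RPKM in COV362. EPCAM, an adhesion molecule of epithelia, had 0.61 and 0.557 RPKM in OVCAR8, against 1.77 and 1.79 RPKM in COV362. AP1M2, the epithelial subunit of a sorting adaptor, went the other way with 11 and 10.3 RPKM in OVCAR8, against 0.104 and 0.111 RPKM in COV362, and so did DSP, the desmosome linker, with 15.3 and 15.9 RPKM in OVCAR8, against 7.11 and 7.84 RPKM in COV362. Among epithelial transcription factors, ELF3 had 0.00446 and 0.0071 RPKM in OVCAR8, against 1.31 and 1.18 RPKM in COV362, and KLF5 had 2.39 and 2.65 RPKM in OVCAR8, against 6.01 and 6.07 RPKM in COV362. The splicing regulators of epithelia differed little. ESRP2 had 1.51 and 1.6 RPKM in OVCAR8 and 1.26 and 1.33 RPKM in COV362 (log2 difference 0.25 ± 0.09, adjusted p = 0.0328), and ESRP1, untested, had 0.188 and 0.211 RPKM in OVCAR8 and 0.174 and 0.195 RPKM in COV362. Without any 1 of the 4 libraries ESRP2 no longer passed, with an adjusted p in limma of 0.0528 to 0.146. CDH1 and GRHL2 were not analysed here.

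Among mesenchymal genes, 16 of 25 tested genes were higher in OVCAR8, 10 at least 2-fold, and 9 were lower, 6 at least 2-fold, with a median of 0.45, and 9 were under the filter level in 1 line. AXL, a receptor tyrosine kinase of mesenchymal carcinoma cells, had 27.6 and 30.6 RPKM in OVCAR8, against 3.84 and 4.12 RPKM in COV362 (log2 difference 2.84 ± 0.05, adjusted p = 4.8e-10). FOXC1, a mesenchymal forkhead factor, had 5.57 and 5.93 RPKM in OVCAR8, against 0.564 and 0.716 RPKM in COV362, but its paralogue FOXC2 had 0.0142 and 0.0113 RPKM in OVCAR8, against 3.11 and 3.47 RPKM in COV362. TGFBI, a matrix protein induced by TGF-beta, had 17.7 and 18.9 RPKM in OVCAR8, against 2.41 and 2.36 RPKM in COV362. VIM, vimentin, the intermediate filament of mesenchymal cells, had 117 and 118 RPKM in OVCAR8 and 135 and 131 RPKM in COV362 (log2 difference -0.18 ± 0.03, adjusted p = 0.00087). CDH2, N-cadherin, had 0.589 and 0.617 RPKM in OVCAR8, against 1.05 and 1.07 RPKM in COV362, and ZEB1, the repressor of epithelial genes, was untested with 0.146 and 0.152 RPKM in OVCAR8 and 0.158 and 0.174 RPKM in COV362. The paralogues FOXC1 and FOXC2 thus differed in opposite directions, and vimentin by under 2-fold.

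In the 250 bases before the RefSeq starts, the E-box bound by ZEB1, CACCTG or its reverse complement CAGGTG, occurred in 2 of the 10 tested epithelial genes with a promoter in the table (20%), against 14.5% of the 6071 tested genes with one. None of the 4 epithelial genes that were at least 2-fold lower in OVCAR8 and had a promoter there held these letters in the window.

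Collagens and matrix genes were divided between the lines by chain. Among collagens, 7 of 10 tested genes were higher in OVCAR8, 6 at least 2-fold, and 3 were lower, 3 at least 2-fold, with a median of 1.44, and 3 were under the filter level in 1 line. The chains of type I collagen, which assemble into 1 fibre, went opposite ways. COL1A1 had 49 and 51.5 RPKM in OVCAR8, against 0.732 and 0.76 RPKM in COV362 (log2 difference 5.90 ± 0.04, adjusted p = 4.1e-12), while COL1A2 had 0 and 0.000895 RPKM in OVCAR8, against 10.1 and 9.41 RPKM in COV362. In BT549 COL1A2 had 45.9 ± 0.165 RPKM (SD, n = 2). The basement membrane chains COL4A1 and COL4A2 were both higher in OVCAR8. COL4A1 had 1.56 and 1.67 RPKM in OVCAR8, against 0.387 and 0.445 RPKM in COV362, and COL4A2 had 2.96 and 3.05 RPKM in OVCAR8, against 0.68 and 0.704 RPKM in COV362. The type VI chains were higher too, COL6A1 with 7.67 and 7.7 RPKM in OVCAR8, against 3.04 and 3.25 RPKM in COV362 and COL6A2 with 13.8 and 14 RPKM in OVCAR8, against 2.29 and 2.25 RPKM in COV362. Both adjacent gene pairs differed in 1 direction.

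Other matrix genes differed both ways. CYR61, a secreted matrix protein induced by YAP, had 553 and 566 RPKM in OVCAR8, against 34.5 and 34.4 RPKM in COV362 (log2 difference 4.02 ± 0.03, adjusted p = 9.6e-12), and FN1, fibronectin, had 10.1 and 10.7 RPKM in OVCAR8, against 1.63 and 1.76 RPKM in COV362. LAMA3, a chain of an epithelial laminin, had 0.00865 and 0.00947 RPKM in OVCAR8, against 1.42 and 1.4 RPKM in COV362. Among proteases and their inhibitors, 11 of 20 tested genes were higher in OVCAR8, 7 at least 2-fold, and 9 were lower, 6 at least 2-fold, with a median of 0.36, and 8 were under the filter level in 1 line. PLAT, an activator of plasminogen, had 3.25 and 3.22 RPKM in OVCAR8, against 0.0326 and 0.0453 RPKM in COV362. SERPINE2, a secreted protease inhibitor, had 0.606 and 0.566 RPKM in OVCAR8, against 8.73 and 8.82 RPKM in COV362, and MMP7, a protease of gland epithelium, had 0 and 0.00961 RPKM in OVCAR8, against 2.73 and 2.65 RPKM in COV362. Among integrins, the receptors for this matrix, 3 of 9 tested genes were higher in OVCAR8, 2 at least 2-fold, and 6 were lower, 4 at least 2-fold, with a median of -0.90, and 6 were under the filter level in 1 line. ITGB8 had 0.255 and 0.304 RPKM in OVCAR8, against 2.89 and 3.06 RPKM in COV362 and ITGB4, a laminin receptor of hemidesmosomes, had 6.61 and 7.22 RPKM in OVCAR8, against 1.84 and 1.87 RPKM in COV362.

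Interferon-stimulated genes were mostly lower in OVCAR8. These genes encode antiviral proteins, are switched on by interferon through its receptors, and are controlled through a DNA element called the ISRE. Of 31 tested members, 29 were lower, 24 of them at least 2-fold, and 2 were higher, with a median of -1.72 against -0.004 for all genes. Of the tested members, 13 had 1 line under the filter level.

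The sequences before the starts of 3 of these genes are shown because the group moved together and because the element recurs in them. Capitals mark each ISRE, searched as GAAANNGAAA and its reverse complement TTTCNNTTTC, where N is any base and matches may overlap. They are the 250 bases upstream of the RefSeq start on GRCh38.p14, 5′ to 3′ on the strand of the gene.
ISG15 (chr1:1013247-1013496, plus strand): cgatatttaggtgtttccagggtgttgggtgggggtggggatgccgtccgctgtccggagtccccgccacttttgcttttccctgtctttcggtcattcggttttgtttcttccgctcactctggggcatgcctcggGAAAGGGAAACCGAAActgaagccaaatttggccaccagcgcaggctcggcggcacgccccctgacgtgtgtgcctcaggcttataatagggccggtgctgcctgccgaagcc
IFI6 (chr1:27672193-27672442, minus strand): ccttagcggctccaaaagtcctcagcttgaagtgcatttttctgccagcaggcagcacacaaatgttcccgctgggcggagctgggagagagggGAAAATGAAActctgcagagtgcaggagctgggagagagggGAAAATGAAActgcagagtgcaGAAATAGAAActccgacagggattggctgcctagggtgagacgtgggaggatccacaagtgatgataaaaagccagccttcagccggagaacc
IFI27 (chr14:94110486-94110735, plus strand): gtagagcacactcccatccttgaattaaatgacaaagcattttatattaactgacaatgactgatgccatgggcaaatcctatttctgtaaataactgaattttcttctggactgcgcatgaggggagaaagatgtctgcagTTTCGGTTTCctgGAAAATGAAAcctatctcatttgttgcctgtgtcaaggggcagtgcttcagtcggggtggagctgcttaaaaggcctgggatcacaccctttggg
ISG15 held 2 overlapping matches, IFI6 held 3 and IFI27 held 2. An ISRE of these letters occurred in 13 of the 24 tested interferon-stimulated genes with a promoter in the table (54.2%), in 142 of the 6071 tested genes with one (2.34%) and in 839 of all 27305 promoters (3.07%). This motif was searched after the differences were seen, and a match is a description of the sequence, not of binding.

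All 3 of these genes were lower in OVCAR8, though not at 0. ISG15, a ubiquitin-like modifier, had 2.93 and 3.16 RPKM in OVCAR8, against 21.1 and 21.8 RPKM in COV362 (log2 difference -2.78 ± 0.07, adjusted p = 2.1e-09). IFI6, an antiviral membrane protein, had 9.23 and 9.1 RPKM in OVCAR8, against 25.4 and 28.4 RPKM in COV362 (log2 difference -1.54 ± 0.07, adjusted p = 1.4e-07). IFI27, a mitochondrial protein, had 3.05 and 3.09 RPKM in OVCAR8, against 37.8 and 41.3 RPKM in COV362 (log2 difference -3.64 ± 0.09, adjusted p = 2.9e-09). Other effectors were lower as well. MX1, a GTPase that blocks viruses, had 0.234 and 0.207 RPKM in OVCAR8, against 3.73 and 4.08 RPKM in COV362, IFI44L had 0.0361 and 0.0413 RPKM in OVCAR8, against 2.18 and 2.45 RPKM in COV362, and RSAD2, the enzyme viperin, had 0.00127 and 0 RPKM in OVCAR8, against 1.98 and 2.06 RPKM in COV362. OASL, a relative of the sensors of double-stranded RNA, had 0.454 and 0.469 RPKM in OVCAR8, against 6.02 and 5.86 RPKM in COV362. The members higher in OVCAR8 were MX2, a paralogue of MX1, with 1.59 and 1.51 RPKM in OVCAR8, against 0.376 and 0.363 RPKM in COV362, and IFITM2, which blocks viral entry, with 57.5 and 57.5 RPKM in OVCAR8, against 17.5 and 17.6 RPKM in COV362. IFIT1, IFITM1, OAS2, IRF1 and IRF9 were not analysed here.

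Genes of antigen presentation differed in both directions. Class I molecules pair a heavy chain with B2M, the invariant light chain, and display peptides at the cell surface. B2M had 6.03 and 5.53 RPKM in OVCAR8, against 158 and 158 RPKM in COV362 (log2 difference -4.75 ± 0.07, adjusted p = 1.5e-10), a level 27.3 times as high in COV362. It was at most 7.29 RPKM in the 8 OVCAR8 libraries, and had 168 ± 6.68 RPKM in BT549 and 198 ± 3.33 RPKM in MDAMB436 (SD, n = 2 each). The heavy chains named here were higher in OVCAR8. HLA-B had 14.7 and 14.6 RPKM in OVCAR8, against 4.72 and 4.95 RPKM in COV362 (log2 difference 1.58 ± 0.04, adjusted p = 3.3e-09), and HLA-E, which is read by natural killer cells, had 119.5 and 119 RPKM in OVCAR8, against 41.4 and 41.3 RPKM in COV362 (log2 difference 1.52 ± 0.03, adjusted p = 7.4e-10). HLA reads can be shared between these similar genes and depend on the alleles of a line. Over the class I and peptide loading list, 10 of 18 tested genes were higher in OVCAR8, 4 at least 2-fold, and 7 were lower, 2 at least 2-fold, with a median of 0.52, and 1 was under the filter level in 1 line. In class II, which immune cells and some carcinomas express, 2 of 6 tested genes were higher in OVCAR8 and 4 lower, all at least 2-fold. Of the 6 tested genes, 5 were under the filter level in 1 line. The invariant chain CD74 had 0.515 and 0.662 RPKM in OVCAR8, against 7.38 and 7.21 RPKM in COV362. HLA-DRA had 0.0396 and 0.0252 RPKM in OVCAR8, against 1.47 and 1.16 RPKM in COV362. By contrast, HLA-DRB1 had 3.98 and 3.78 RPKM in OVCAR8, against 0.0985 and 0.0991 RPKM in COV362. HLA-DQB1 had 3.58 and 3.55 RPKM in OVCAR8, against 0.234 and 0.138 RPKM in COV362.

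Among cytokines and targets of NF-kB, 7 of 19 tested genes were higher in OVCAR8, 5 at least 2-fold, and 10 were lower, 8 at least 2-fold, with a median of -0.97, and 10 were under the filter level in 1 line. The chemokine CCL2, which attracts monocytes, was listed at 0 in both OVCAR8 libraries and had 5.41 and 4.94 RPKM in COV362. CXCL1, which attracts neutrophils, had 0.602 and 0.514 RPKM in OVCAR8, against 6.33 and 6.32 RPKM in COV362. TNFAIP2, a target of NF-kB, had 2.33 and 2.71 RPKM in OVCAR8, against 29.8 and 29 RPKM in COV362 (log2 difference -3.50 ± 0.09, adjusted p = 3.5e-09). Higher in OVCAR8 were the cytokine IL32, with 11.3 and 11.8 RPKM in OVCAR8, against 0.238 and 0.242 RPKM in COV362, and ICAM1, an adhesion molecule for leukocytes, with 2.27 and 2.26 RPKM in OVCAR8, against 0.0731 and 0.0862 RPKM in COV362. Markers of other cell types were also looked up. Of the leukocyte markers, CD14 had 0.898 and 0.781 RPKM in OVCAR8 and 0.837 and 0.912 RPKM in COV362 (log2 difference -0.05 ± 0.25, adjusted p = 0.848), and CD8A had 0.0953 and 0.114 RPKM in OVCAR8 and 0.00524 and 0.00369 RPKM in COV362. Of 5 measured endothelial markers none reached the filter, and the highest were CDH5, with 0.00648 and 0.0043 RPKM in OVCAR8 and 1.01 and 0.982 RPKM in COV362, and ESAM, with 0.9 and 0.916 RPKM in OVCAR8 and 0.0161 and 0.0113 RPKM in COV362.

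Receptors and their ligands differed in both directions. Among receptor tyrosine kinases, 9 of 16 tested genes were higher in OVCAR8, 6 at least 2-fold, and 5 were lower, 3 at least 2-fold, with a median of 0.47, and 4 were under the filter level in 1 line. FGFR4, a receptor for fibroblast growth factors, had 14.9 and 15.4 RPKM in OVCAR8, against 0.556 and 0.608 RPKM in COV362 (log2 difference 4.48 ± 0.11, adjusted p = 2.2e-09), and FGFR3 had 3.34 and 3.4 RPKM in OVCAR8, against 0.302 and 0.387 RPKM in COV362. ERBB3, the partner of ERBB2, had 6.32 and 5.97 RPKM in OVCAR8, against 0.197 and 0.185 RPKM in COV362 (log2 difference 4.42 ± 0.07, adjusted p = 1.7e-10), and PDGFRB had 1.87 and 1.87 RPKM in OVCAR8, against 0.0586 and 0.0543 RPKM in COV362. Lower in OVCAR8 were DDR2, a receptor for collagen, with 0.00766 and 0.00988 RPKM in OVCAR8, against 2.02 and 2.13 RPKM in COV362, and MET, the receptor of hepatocyte growth factor, with 0.78 and 0.87 RPKM in OVCAR8, against 2.99 and 2.98 RPKM in COV362. Among ligands, MDK, the growth factor midkine, had 18.6 and 19.1 RPKM in OVCAR8, against 219.5 and 214 RPKM in COV362 (log2 difference -3.52 ± 0.05, adjusted p = 1.1e-10), and IGFBP2, which binds insulin-like growth factors, had 0.0013 and 0.00104 RPKM in OVCAR8, against 8.81 and 8.88 RPKM in COV362. GRN, progranulin, was higher in OVCAR8, with 93.8 and 97.5 RPKM in OVCAR8, against 34.2 and 33.1 RPKM in COV362.

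The ID genes, targets of bone morphogenetic proteins, were all lower in OVCAR8. Over the TGF-beta, BMP and activin list, 7 of 20 tested genes were higher in OVCAR8, 4 at least 2-fold, and 13 were lower, 11 at least 2-fold, with a median of -1.04, and 8 were under the filter level in 1 line. The ID proteins block differentiation factors and are standard readouts of BMP signals. ID2 had 0.0367 and 0.041 RPKM in OVCAR8, against 12.4 and 11.7 RPKM in COV362 (log2 difference -6.45 ± 0.10, adjusted p = 2.3e-10), and ID4 had 0.0875 and 0.0497 RPKM in OVCAR8, against 11 and 11.6 RPKM in COV362 (log2 difference -6.09 ± 0.10, adjusted p = 3.3e-10). ID3 had 12.4 and 14.2 RPKM in OVCAR8, against 45.5 and 46.9 RPKM in COV362, and ID1 had 49.7 and 50.8 RPKM in OVCAR8, against 102 and 107 RPKM in COV362 (log2 difference -1.06 ± 0.07, adjusted p = 1.5e-06). All 4 ID genes were at least 2-fold lower, from -1.06 in ID1 to -6.45 in ID2. The feedback inhibitor SMAD6 had 0.0593 and 0.0631 RPKM in OVCAR8, against 1.89 and 1.9 RPKM in COV362, and NOG, the secreted antagonist noggin, had 0.131 and 0.121 RPKM in OVCAR8, against 8.65 and 9.19 RPKM in COV362. The receptor TGFBR2 had 0.496 and 0.541 RPKM in OVCAR8, against 3.93 and 3.95 RPKM in COV362. Higher in OVCAR8 were TGFB1 itself, with 1.8 and 2.07 RPKM in OVCAR8, against 0.291 and 0.303 RPKM in COV362, and FSTL3, an activin antagonist, with 30.1 and 29.4 RPKM in OVCAR8, against 7.12 and 6.66 RPKM in COV362.

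In the Wnt and Notch list, 12 of 22 tested genes were higher in OVCAR8, 5 at least 2-fold, and 8 were lower, 7 at least 2-fold, with a median of 0.36, and 4 were under the filter level in 1 line. FZD2, a Wnt receptor, had 78.8 and 84.9 RPKM in OVCAR8, against 9.86 and 9.86 RPKM in COV362 (log2 difference 3.04 ± 0.12, adjusted p = 3.7e-08), and WNT7A, a ligand of the Mullerian tract, was listed at 0 in OVCAR8 and had 2 and 1.88 RPKM in COV362. The Notch ligands went opposite ways, JAG1 with 0.115 and 0.126 RPKM in OVCAR8, against 2.14 and 2.12 RPKM in COV362 and JAG2 with 2.89 and 3.08 RPKM in OVCAR8, against 0.763 and 0.83 RPKM in COV362. HES1, a target of Notch, had 3.63 and 4.3 RPKM in OVCAR8, against 17.9 and 18 RPKM in COV362, and its relative HES4 had 90.3 and 88.2 RPKM in OVCAR8, against 22.3 and 21.6 RPKM in COV362.

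**Figure D3:**
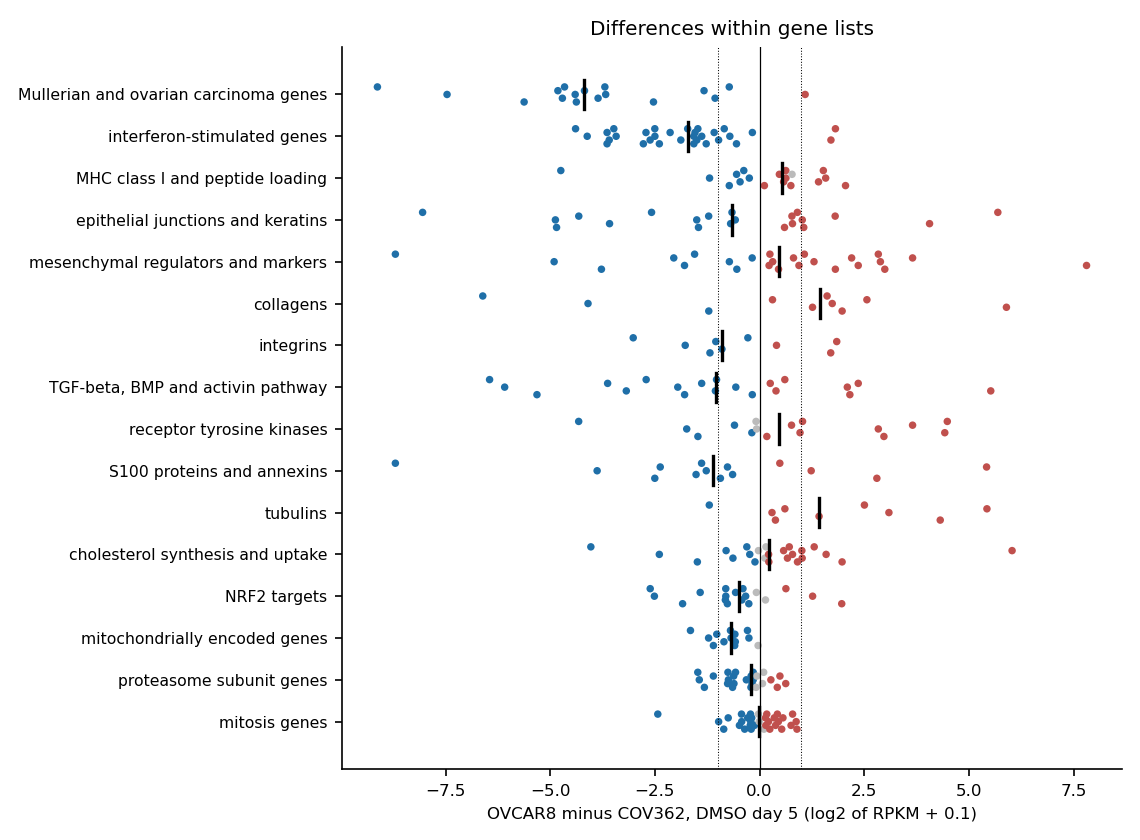
Log2 difference of OVCAR8 minus COV362 under DMSO at day 5 for each tested member of 16 gene lists, red or blue where it passed an adjusted p of 0.05 and grey where it did not, with the list median as a black bar and 2-fold as dotted lines. The Mullerian list has a median of -4.18 and the mitosis list one of -0.01.

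Tubulins, the subunits of microtubules, were higher in OVCAR8 in 8 of 9 tested genes, 5 of them at least 2-fold, with a median of 1.42. The beta-tubulin TUBB2B had 27.7 and 30.4 RPKM in OVCAR8, against 0.522 and 0.635 RPKM in COV362 (log2 difference 5.43 ± 0.09, adjusted p = 3.7e-10), and TUBB2A had 64.5 and 63.5 RPKM in OVCAR8, against 3.08 and 3.16 RPKM in COV362 (log2 difference 4.31 ± 0.04, adjusted p = 9.2e-12). TUBB6 had 18 and 18 RPKM in OVCAR8, against 2.06 and 2 RPKM in COV362, and TUBB had 488 and 493 RPKM in OVCAR8 and 399 and 399.5 RPKM in COV362. TUBB2A and TUBB2B are close copies, and reads may be split between them. Among S100 proteins and annexins, 4 of 14 tested genes were higher in OVCAR8, 3 at least 2-fold, and 10 were lower, 7 at least 2-fold, with a median of -1.10, and 3 were under the filter level in 1 line. S100A6 had 179.8 and 167 RPKM in OVCAR8, against 985 and 978 RPKM in COV362 and S100A16 had 16.3 and 16.3 RPKM in OVCAR8, against 85.9 and 84 RPKM in COV362, both calcium-binding proteins encoded in the same cluster as S100A4. ANXA8, an annexin, had 4.82 and 4.79 RPKM in OVCAR8, against 0.00909 and 0.0201 RPKM in COV362, and ANXA6 had 9.93 and 10.2 RPKM in OVCAR8, against 1.33 and 1.39 RPKM in COV362.

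Of the metallothioneins, which bind zinc and copper, 4 of 6 tested genes were higher in OVCAR8, 4 at least 2-fold, and 1 was lower, 1 at least 2-fold, with a median of 1.81, and 1 was under the filter level in 1 line. MT2A had 600.2 and 588 RPKM in OVCAR8, against 108 and 108 RPKM in COV362 (log2 difference 2.46 ± 0.07, adjusted p = 4.1e-09) and MT1E had 206 and 189 RPKM in OVCAR8, against 41.9 and 42.7 RPKM in COV362 (log2 difference 2.22 ± 0.07, adjusted p = 7.9e-09), while MT1A was listed at 0 in OVCAR8 and had 1.29 and 1.31 RPKM in COV362. These genes are close copies, and reads may be split between them. Cancer-testis antigens, genes of the germ line that tumours can switch on, were mostly at or near 0. Of 13 measured, 4 were tested and 3 were higher in OVCAR8, CTCFL, XAGE1B and TEX19. These 3 were at least 2-fold higher, against 15.2% of all tested genes. Of the 4 tested members, 3 were under the filter level in 1 line, which favours large differences. PRAME, an antigen found in many carcinomas, did not pass the test, with 17.7 and 17.8 RPKM in OVCAR8 and 18.4 and 17.9 RPKM in COV362 (log2 difference -0.03 ± 0.03, adjusted p = 0.341). The surface antigen CD24 had 156 and 155 RPKM in OVCAR8, against 13.5 and 13.1 RPKM in COV362 (log2 difference 3.54 ± 0.05, adjusted p = 1.3e-10), and SOX4, a progenitor factor, had 4.66 and 5 RPKM in OVCAR8, against 37.3 and 36 RPKM in COV362.

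Mitosis genes were evenly divided, 15 higher and 15 lower of 33 tested, and 1 of them was past 2-fold, against 29.1% of all tested genes. That gene was CENPF, of the kinetochore, with 1.52 and 1.6 RPKM in OVCAR8, against 8.38 and 9.36 RPKM in COV362. Of the replication genes, 16 of 31 tested genes were higher in OVCAR8, 2 at least 2-fold, and 13 were lower, 1 at least 2-fold, with a median of 0.13. CCND1, cyclin D1, which drives entry into the cycle, had 10.5 and 11 RPKM in OVCAR8, against 47.9 and 48.7 RPKM in COV362 (log2 difference -2.16 ± 0.04, adjusted p = 7.4e-10). Inhibitors of the cyclin-dependent kinases differed both ways. CDKN1A, the inhibitor p21, had 5.48 and 5.63 RPKM in OVCAR8, against 1.61 and 1.44 RPKM in COV362 (log2 difference 1.80 ± 0.07, adjusted p = 3.2e-08), CDKN1C had 16.5 and 16.3 RPKM in OVCAR8, against 3.88 and 3.8 RPKM in COV362 (log2 difference 2.07 ± 0.08, adjusted p = 3.1e-08) and CDKN2D had 11.8 and 10.5 RPKM in OVCAR8, against 3.1 and 3.51 RPKM in COV362, whereas CDKN2C had 6.14 and 5.97 RPKM in OVCAR8, against 7.37 and 7 RPKM in COV362 (log2 difference -0.24 ± 0.04, adjusted p = 0.00071). MYC had 29.2 and 30.9 RPKM in OVCAR8 and 38 and 37.5 RPKM in COV362 (log2 difference -0.33 ± 0.06, adjusted p = 0.00131) and CCNE1, cyclin E1, had 2.87 and 2.69 RPKM in OVCAR8 and 3.38 and 3.44 RPKM in COV362 (log2 difference -0.29 ± 0.06, adjusted p = 0.00256). RB1, the retinoblastoma protein that restrains this step, did not reach the filter in either line, with 0.0318 and 0.0324 RPKM in OVCAR8 and 0.024 and 0.0236 RPKM in COV362, and its relative RBL2 had 2.26 and 2.12 RPKM in OVCAR8, against 1.08 and 1.1 RPKM in COV362. CDKN2A and CDKN2B were not analysed here.

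Among repair genes, BRCA1 had 0.152 and 0.16 RPKM in OVCAR8 and 0.428 and 0.455 RPKM in COV362. BRCA2 had 0.169 and 0.214 RPKM in OVCAR8 and 0.303 and 0.34 RPKM in COV362. Both were under the filter and untested, though not for want of reads. BRCA1 held 466 and 616 recovered reads in OVCAR8 and 1728 and 2610 in COV362, and BRCA2 348 and 552 against 823 and 1313. Both OVCAR8 libraries lay under both COV362 libraries, which is not a test. RAD51C, a recombination factor, had 0.843 and 0.791 RPKM in OVCAR8 and 0.461 and 0.471 RPKM in COV362 (log2 difference 0.69 ± 0.06, adjusted p = 4.2e-06). In homologous recombination and the Fanconi pathway, 5 of 15 tested genes were higher in OVCAR8, 0 at least 2-fold, and 8 were lower, 3 at least 2-fold, with a median of -0.21, and 4 were under the filter level in 1 line. Past 2-fold, 15.2% of all tested genes were higher and 13.9% lower.

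The target of the drug differed between the untreated lines. PRMT5, which adds symmetric dimethyl marks to arginines, had 5.1 and 5.22 RPKM in OVCAR8, against 2.07 and 2.44 RPKM in COV362 (log2 difference 1.16 ± 0.07, adjusted p = 6.9e-07). Its obligate partner WDR77 had 3.96 and 3.52 RPKM in OVCAR8 and 3.66 and 3.84 RPKM in COV362 and did not pass the test (adjusted p = 0.962), and the adaptor CLNS1A had 1.59 and 1.46 RPKM in OVCAR8 and 2.04 and 2.02 RPKM in COV362 (log2 difference -0.39 ± 0.06, adjusted p = 0.00019). Among the arginine methyltransferases and their partners, 7 of 16 tested genes were higher in OVCAR8, 4 at least 2-fold, and 5 were lower, 1 at least 2-fold, with a median of 0.04. Those 2-fold counts stand against 15.2% higher and 13.9% lower over all tested genes. CARM1 had 2.65 and 2.85 RPKM in OVCAR8, against 1.05 and 1.03 RPKM in COV362, and PRMT2 had 4.54 and 4.23 RPKM in OVCAR8, against 1.87 and 1.84 RPKM in COV362. MAT2A, the enzyme that makes the methyl donor, had 28.6 and 26.5 RPKM in OVCAR8, against 67.6 and 68.3 RPKM in COV362 (log2 difference -1.30 ± 0.05, adjusted p = 3.9e-08). PRMT5 opens a run of 25 tested protein-coding genes on chromosome 14, of which 23 were higher in OVCAR8, with a median of 0.63. MTAP was not analysed here.

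Metabolic genes differed in both directions. For cholesterol synthesis and uptake, 13 of 24 tested genes were higher in OVCAR8, 6 at least 2-fold, and 8 were lower, 3 at least 2-fold, with a median of 0.22, and 3 were under the filter level in 1 line. SC5D, a late enzyme of the pathway, had 0.0406 and 0.0566 RPKM in OVCAR8, against 2.37 and 2.28 RPKM in COV362. The glucose transporter SLC2A1 had 2.51 and 2.67 RPKM in OVCAR8, against 14 and 13.7 RPKM in COV362, and the neuronal enolase ENO2 had 28.7 and 26.7 RPKM in OVCAR8, against 3.28 and 3.17 RPKM in COV362 (log2 difference 3.07 ± 0.04, adjusted p = 6.5e-11). DDIT4, an inhibitor of mTORC1 induced by stress, had 5.84 and 5.24 RPKM in OVCAR8, against 71.1 and 70.1 RPKM in COV362 (log2 difference -3.65 ± 0.08, adjusted p = 1.7e-09). Among targets of NRF2, the factor against oxidative stress, 3 of 18 tested genes were higher in OVCAR8, 2 at least 2-fold, and 13 were lower, 4 at least 2-fold, with a median of -0.50, and 3 were under the filter level in 1 line. The 2-fold shares over all tested genes were 15.2% higher and 13.9% lower. SQSTM1, the autophagy receptor p62, had 9.32 and 9.37 RPKM in OVCAR8, against 54.1 and 53.5 RPKM in COV362 (log2 difference -2.51 ± 0.04, adjusted p = 2.7e-10), and FTH1, ferritin heavy chain, had 98.7 and 106 RPKM in OVCAR8, against 364 and 368 RPKM in COV362 (log2 difference -1.84 ± 0.08, adjusted p = 6.1e-08). HMOX1, haem oxygenase, had 1.6 and 1.72 RPKM in OVCAR8, against 0.308 and 0.401 RPKM in COV362.

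In the list of drug transporters and detoxifying enzymes, 3 of 20 tested genes were higher in OVCAR8, 1 at least 2-fold, and 15 were lower, 8 at least 2-fold, with a median of -0.32, and 7 were under the filter level in 1 line. ALDH3B1, an aldehyde dehydrogenase, had 1.08 and 1.02 RPKM in OVCAR8, against 4.94 and 4.79 RPKM in COV362, and AKR1C3, a steroid-reducing enzyme, had 0.0883 and 0.0817 RPKM in OVCAR8, against 1.38 and 1.33 RPKM in COV362. GSTP1, a glutathione transferase, had 256 and 256 RPKM in OVCAR8 and 302 and 298 RPKM in COV362 (log2 difference -0.23 ± 0.05, adjusted p = 0.00249). Of the mitochondrially encoded genes, 0 of 13 tested genes were higher in OVCAR8, 0 at least 2-fold, and 12 were lower, 4 at least 2-fold, with a median of -0.68. MT-CO3, a subunit of cytochrome oxidase, had 452 and 517 RPKM in OVCAR8, against 1669.8 and 1381 RPKM in COV362. Of the proteasome subunits, 4 of 25 tested genes were higher in OVCAR8, 0 at least 2-fold, and 17 were lower, 4 at least 2-fold, with a median of -0.21. The share lower past 2-fold is near the 13.9% of all genes. The subunit PSMB4 had 83.6 and 87.5 RPKM in OVCAR8, against 236 and 241 RPKM in COV362. Of the ribosomal protein genes, 20 of 50 tested genes were higher in OVCAR8, 1 at least 2-fold, and 18 were lower, 3 at least 2-fold, with a median of 0.04. RPL8, of the large subunit, had 1690.3 and 1644 RPKM in OVCAR8 and 1654 and 1614 RPKM in COV362 (log2 difference 0.03 ± 0.05, adjusted p = 0.597).

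The difference between the lines was also laid out by chromosome, after the data were seen and as a description with no test. Over 7438 tested protein-coding genes the median was -0.009. It was highest on chromosome 13, at 0.69 over 102 genes, followed by chromosome 14, at 0.47 over 217 genes, and chromosome 22, at 0.36 over 195 genes. It was lowest on chromosome 7, at -0.46 over 336 genes, followed by the X chromosome, at -0.44 over 253 genes, and chromosome 15, at -0.43 over 197 genes. On chromosome 7, 25.3% of the genes were at least 2-fold lower and 5.95% at least 2-fold higher, against 13.7% and 14.5% over all of these genes.

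Neighbouring genes shared a direction over long stretches. In 287 successive blocks of 25 genes, 52 had a median of at least 0.5 and 49 one of -0.5 or lower. The lowest lay on chromosome 7, from PMPCB to SND1 (chr7:103297422-128092609, GRCh38), where all 25 genes were lower in OVCAR8, with a median of -1.38. On chromosome 1 the block from CDC42SE1 to SNAPIN (chr1:151050971-153661830) had a median of -1.37 with 24 of 25 genes lower, and blocks on both sides of it were also low. That block on chromosome 1 holds part of the S100 cluster. The highest was the first block of chromosome 17, from RFLNB to CTNS (chr17:439978-3661542), with a median of 1.26 and 24 of 25 genes higher. The first block of chromosome 18, from USP14 to RNMT (chr18:158383-13764558), had a median of 1.24, and the last of chromosome 13, from TM9SF2 to CDC16 (chr13:99446311-114272723), had one of 1.08 with all 25 genes higher. DNA copy number was not measured in these files, and its part in these stretches was not tested.

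**Figure D4:**
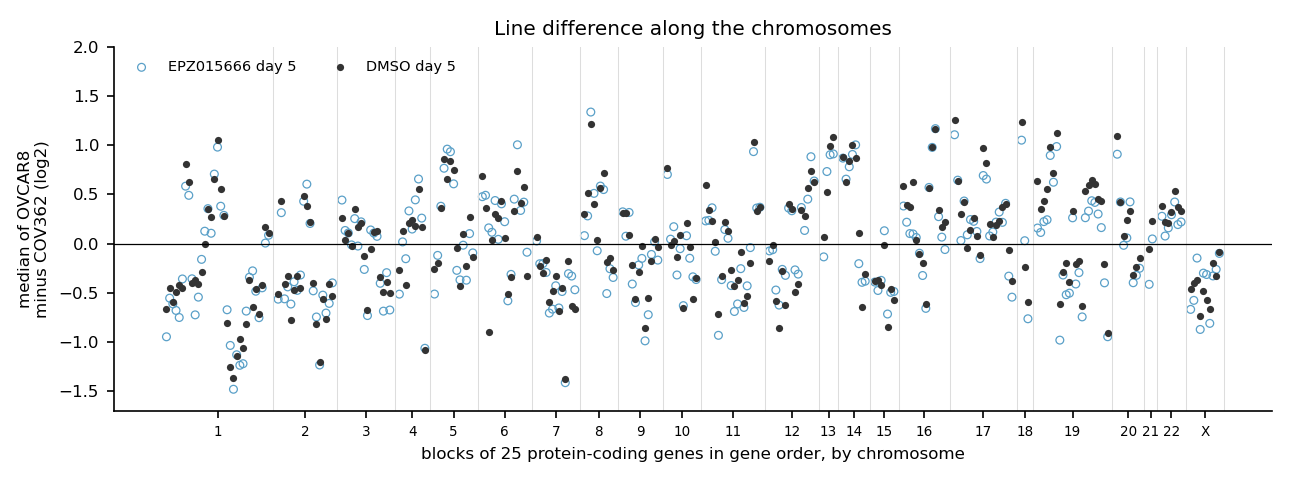
Median log2 difference of OVCAR8 minus COV362 in 287 blocks of 25 successive tested protein-coding genes, in gene order along each chromosome, in the EPZ015666 libraries (open circles) and the DMSO libraries (filled circles) of day 5. The lowest filled circle, on chromosome 7, stands at -1.38 and the highest, on chromosome 17, at 1.26.

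The same lines treated with EPZ015666 for 5 days gave 4 further libraries that the comparison above did not use. There 7286 of 8715 tested genes (83.6%) passed the threshold, 3478 (39.9%) higher and 3808 (43.7%) lower in OVCAR8. Of the genes at least 2-fold higher in OVCAR8 under DMSO, 1238 were tested under the drug, and 1190 of these (96.1%) were called higher and 6 called lower. Of those at least 2-fold lower, 1115 were tested, and 1081 (97.0%) were called lower and 4 higher. One of the drug libraries, OVCAR8 replicate B, held 4.54% of its reads in genes of a ribosomal DNA clone region of chromosome 21, against at most 1.39% in the other 23, and without it 6948 genes passed. UBB under the drug had 0 and 0 RPKM in OVCAR8, against 190.3 and 191 RPKM in COV362, B2M had 6.65 and 7.29 RPKM in OVCAR8, against 104 and 107 RPKM in COV362 and SOX17 had 0.0527 and 0 RPKM in OVCAR8, against 42.6 and 41.6 RPKM in COV362. The Mullerian list had a median of -4.05, with 14 lower of 15 tested, fewer members than the 17 tested under DMSO. In the chromosome blocks, 36 of the 52 high blocks and 37 of the 49 low ones were past the same bounds in the drug libraries.

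Whether the size of the difference itself changed under the drug was tested as an interaction over the 8 libraries. Of 8721 genes 4592 (52.7%) passed, and 389 (4.46%) changed by at least 2-fold, 166 (1.9%) upward and 223 (2.56%) downward. Among genes with a mean of at least 5 RPKM over the 8 libraries, the largest negative change was in F3, tissue factor, the starter of clotting. It had 13.1 and 13.9 RPKM in OVCAR8, against 4.33 and 4.31 RPKM in COV362 under EPZ015666, and 16.2 and 15.5 RPKM in OVCAR8, against 0.709 and 0.78 RPKM in COV362 under DMSO (interaction -2.62 ± 0.08, adjusted p = 5.5e-05). DKK1, a Wnt antagonist, had 18.1 and 17.9 RPKM in OVCAR8, against 19.3 and 19.2 RPKM in COV362 under EPZ015666, and 22.8 and 21.5 RPKM in OVCAR8, against 5.41 and 5.81 RPKM in COV362 under DMSO (interaction -2.06 ± 0.06, adjusted p = 5.5e-05). In F3 OVCAR8 was above COV362 in both conditions.

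Among the same genes the largest positive changes were in interferon-stimulated genes, in which the level in COV362 was lower with the drug. IFI6 had 6.03 and 6.05 RPKM in OVCAR8, against 3.12 and 2.9 RPKM in COV362 under EPZ015666, so that OVCAR8 lay above COV362 there and below it under DMSO (interaction 2.52 ± 0.08, adjusted p = 5.5e-05). IFI27 had 2.54 and 2.53 RPKM in OVCAR8, against 8.67 and 8.76 RPKM in COV362 under EPZ015666 (interaction 1.90 ± 0.06, adjusted p = 5.5e-05). The tested members of the interferon list had a median of -0.88 under the drug and of -1.72 without it. Under the drug 17 were lower and 4 higher of 23 tested. That is fewer than the 31 tested under DMSO, because the others did not reach the filter there. The 2 medians thus cover different members, and their difference does not measure a change in level alone. PSAT1, an enzyme of serine synthesis, had 8.94 and 8.64 RPKM in OVCAR8, against 11.8 and 12 RPKM in COV362 under EPZ015666, and 4.26 and 4.08 RPKM in OVCAR8, against 16.4 and 16.5 RPKM in COV362 under DMSO (interaction 1.52 ± 0.05, adjusted p = 5.5e-05). SCD, the desaturase of fatty acids, had 148 and 148 RPKM in OVCAR8, against 30.3 and 31.6 RPKM in COV362 under EPZ015666, and 107 and 112 RPKM in OVCAR8, against 63.2 and 61.1 RPKM in COV362 under DMSO (interaction 1.44 ± 0.05, adjusted p = 6.4e-05). MUC1 had 1.75 and 1.79 RPKM in OVCAR8, against 17 and 15.9 RPKM in COV362 under EPZ015666 (interaction 1.51 ± 0.12, adjusted p = 0.00037), and CLDN1 had 2.3 and 2.39 RPKM in OVCAR8, against 16.4 and 17.2 RPKM in COV362 (interaction 1.53 ± 0.07, adjusted p = 9.2e-05).

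**Figure D5:**
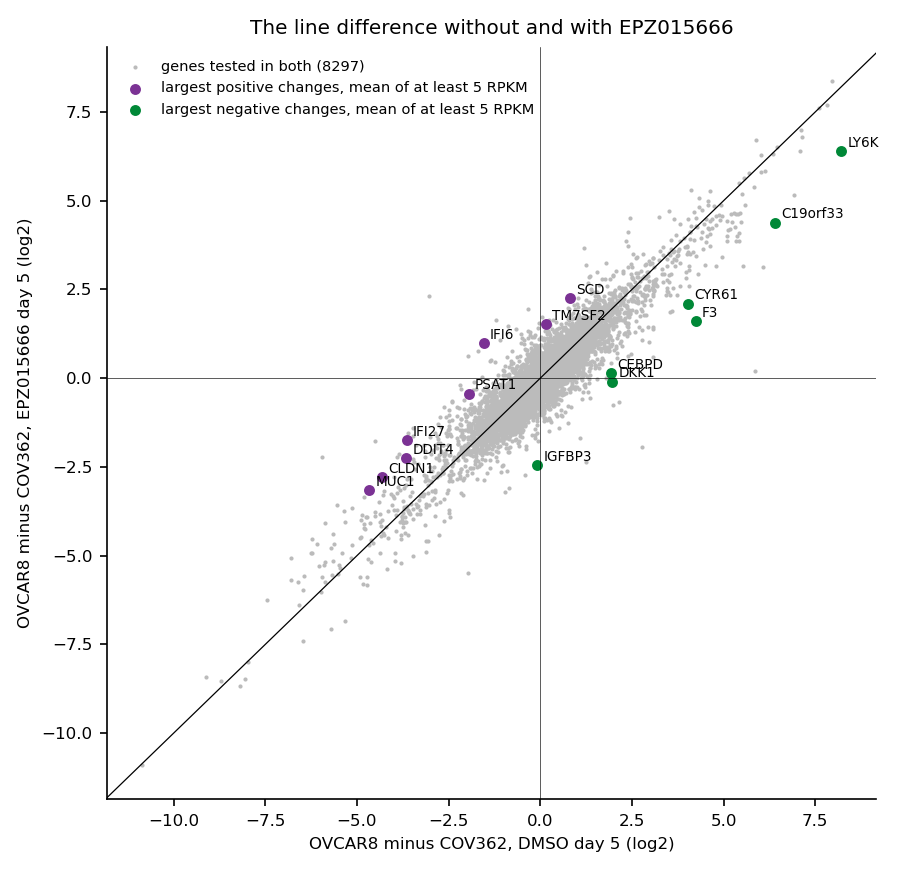
Log2 difference of OVCAR8 minus COV362 in the EPZ015666 libraries (vertical) and in the DMSO libraries (horizontal) of day 5, over the 8297 genes tested in both, with the line of equal differences. Among genes with a mean of at least 5 RPKM over the 8 libraries, the 8 largest positive changes, such as IFI6 at 2.52, are purple and 7 of the 8 largest negative ones, such as F3 at -2.62, are green.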

How the data were processed

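Poly(A) RNA of 24 libraries was sequenced as stranded libraries, per the labels' protocols, and reads were counted with featureCounts on GRCh38, per the submitters' processing notes. The aligner was not given in the sources read for this. By unit, the deposited RPKM values were computed by the authors for 16591 symbols. Multiplied by the whole span of a gene in GENCODE release 29, each value under 1000 reads gave a whole number within 0.02 of a read in 100% of cases, so RPKM is per kilobase of span. A single span was found for 16544 symbols and not for 47.

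The members, gene lists, tests and the rule for named genes were chosen with earlier results of these data known. limma 3.58.1 in R 4.3.3 with the trend option was fitted to log2(RPKM + 0.1) over the 12 DMSO libraries, which share 1 spread per gene, then over the 12 EPZ015666 libraries, and over the 8 ovarian libraries of day 5 for the interaction. Genes with a mean of at least 0.5 RPKM over the libraries compared were tested, two-sided, with Benjamini-Hochberg adjustment at 0.05. No count model was the main test because the deposited values are RPKM, and limma-voom on the reads recovered from them was an alternative fit. Groups come from the labels, and the replicate letters were not taken as pairs.

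Named genes were, among those called with no overlap between lines and at least 5 RPKM in the higher line, the 20 largest differences each way, then the 10 highest in each line, from every list at most 6 by lowest adjusted p, the 8 largest interaction differences each way and a fixed set of key genes, and the text gives a part. Results for some genes are not reported here. Other genes named as list members or neighbours were chosen after their values were seen (such as LCN2, SLPI and TUBB). The 45 lists hold 1292 entries, 1018 of them in the table. Promoters are 250 bases upstream from RefSeq (GRCh38.p14), in a table with 27305 symbols. Tables and figures were made with Python 3.11.15, pandas 2.3.3 and matplotlib 3.10.9.

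On simulated counts for the real genes, with 200 changed, the DMSO comparison (8685 genes) recovered 76% of 1.5-fold and 93% of 2-fold changes with 5 false calls, and the interaction (8691 genes) 21% and 86% with 13. The other settings were a pseudocount of 1, other filters on low values, median-of-ratios scaling, a replicate block, other sets of libraries, each library left out, and, chosen after seeing the data, limma-voom on the recovered reads of genes with at least 1 CPM. Depth is known only through those recovered reads.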

Additional observations from a re-analysis of the deposited data

Results flagged for a closer look

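The difference between the lines changed under EPZ015666, by the interaction test in limma, in the genes named for it, given as the log2 difference of OVCAR8 minus COV362 under EPZ015666 minus the same under DMSO. It became more positive in IFI6 by 2.52, IFI27 by 1.90, CLDN1 by 1.53, PSAT1 by 1.52, MUC1 by 1.51, SCD by 1.44, DDIT4 by 1.41 and TM7SF2 by 1.36. The change was -2.62 in F3, -2.36 in IGFBP3, -2.06 in DKK1, -2.02 in C19orf33, -1.92 in CYR61, -1.82 in LY6K and -1.80 in CEBPD. In COV362 under DMSO, C19orf33 had 0.0734 and 0.129 RPKM, from 2 and 5 recovered reads, and LY6K was also near 0. The size of the change in these genes depends on the added 0.1. No group of these lines held 4 or more libraries, so no library was tested for lying apart.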

How the results depend on the processing

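The counts moved with the filter on low values, with the pseudocount for those past 2-fold, and with limma-voom, which changed the model and the filter together. In the DMSO comparison 7158 genes were called, against 11770 with no filter, 2028 with a mean of at least 5 RPKM and 10913 by limma-voom on recovered reads, and the 2527 past 2-fold became 1320 with a pseudocount of 1, 4285, 620 and 4641. In the EPZ015666 comparison the 7286 became 11992, 2013 and 11017, and the 2565 past 2-fold became 1347, 4283, 645 and 4744. The interaction gave 4592 calls, against 1482 at 5 RPKM and 6903 by limma-voom, and its 389 past 2-fold became 144, 658, 90 and 1080. With each library left out in turn, the DMSO counts were 6700 to 6832 (2513 to 2524 past 2-fold), the EPZ015666 counts 6908 to 6975 (2551 to 2586) and the interaction counts 3764 to 4336 (379 to 413). For named genes and list medians, the alternatives were followed in the DMSO comparison alone, not under the drug or in the interaction. Of the named genes' values, 3480 kept direction and side of the threshold, 3 newly passed it, 13 no longer did and 0 reversed. Of the list medians, 362 moved by less than the spread between libraries and 169 by more. Most moved by more with a pseudocount of 1 (29 against 12) and no filter (25 against 16). The same held for filters of 1 RPKM (22 against 19) and 5 RPKM (30 against 9), and for limma-voom (30 against 11). All 41 stayed within it with the replicate block, all 24 libraries or only the 4 compared. Most also did with median-of-ratios scaling and with each library left out.

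The replicate letters were not taken as pairs, since libraries of the same letter did not deviate together (correlation -0.0111 under DMSO and -0.155 under EPZ015666). With the letter as a replicate block the DMSO comparison called 7153 genes (2528 past 2-fold), the EPZ015666 comparison 7305 (2566) and the interaction 4331 (390). With the letters crossed in COV362, chosen after seeing the data, the EPZ015666 comparison called 7262 (2565). Depth limits genes of few reads, and the number of libraries limits every p-value.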
